A study of Mus musculus with 6 samples.

Results

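The genes described here encode the actin monomers of B cells and proteins that load, cap or take apart actin filaments. They were chosen by name as a set of 10, with earlier results of these data known. The set is Actb, Actg1, Pfn1, Cfl1, Coro1a, Tmsb4x, Tmsb10, Capzb, Wdr1 and Cap1. It matched 13 of 25017 entries of the expression table, or 10 of 20433 gene names. The study sorted follicular B cells, gated as B220+AA4.1-CD23+CD21lo, from C57BL/6 mice of 2 genotypes and sequenced their RNA. The control mice were CD23Cre+Myh9wt/fl, with 1 loxP-flanked and 1 wild-type copy of Myh9, and the myosin IIa-deficient mice were CD23Cre+Myh9fl/fl, with both copies flanked. Both genotypes carried the Cre transgene, which is driven by the promoter of the CD23 gene Fcer2 and acts from the transitional B cell stage onwards, so the controls were haploinsufficient for Myh9 rather than wild type and no group without Cre was compared. The ages of the mice are not given in the labels. There were 3 replicates per genotype, which the authors combined into 1 FPKM value (sequenced fragments counted per unit of transcript length and of library size) for each genotype. The spread between replicates cannot be computed from these values, no difference below has an error or a test, and the sequencing depth behind the values is unknown.

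Actin filaments in a cell are built and dismantled continuously. Thymosins hold monomers in reserve, profilin passes them to growing filament ends, and capping protein closes those ends. Cofilin, with WDR1, coronin and cyclase-associated protein, severs old filaments and returns monomers to the pool. In lymphocytes this cycle shapes the cortex on which myosin IIa, the motor whose heavy chain Myh9 encodes, pulls during migration, antigen uptake and division.

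The set holds both cytoplasmic actins and both main thymosins, and each of these pairs is made of near relatives encoded at separate places in the genome. They are shown because a short fragment can be assigned to a gene with certainty only where its sequence differs from that of its relatives. The first 60 bases of the coding sequence of Actb (GRCm38, chr5:142905627-142905686, minus strand) and of Actg1 (GRCm38, chr11:120348032-120348091, minus strand) are written 5′ to 3′ with the 9 differing bases in capitals.
Actb: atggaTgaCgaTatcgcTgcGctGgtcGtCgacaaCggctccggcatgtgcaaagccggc
Actg1: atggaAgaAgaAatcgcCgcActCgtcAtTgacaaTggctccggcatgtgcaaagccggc
Over the whole coding sequence of 1128 bases including the stop codon, these actins had 1000 bases in common and differed at 128, an identity of 88.7%.

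The coding sequences of the thymosins are short enough to give whole, at 135 bases each with the stop codon. Tmsb4x lies on GRCm38 chrX:167207501-167208036 and Tmsb10 on GRCm38 chr6:72957618-72958012, both on the minus strand with an intron in that span, and capitals mark the 40 differing bases.
Tmsb4x: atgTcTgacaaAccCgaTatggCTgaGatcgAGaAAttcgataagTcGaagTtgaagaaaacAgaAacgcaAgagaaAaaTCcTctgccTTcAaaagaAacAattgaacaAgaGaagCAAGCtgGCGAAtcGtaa
Tmsb10: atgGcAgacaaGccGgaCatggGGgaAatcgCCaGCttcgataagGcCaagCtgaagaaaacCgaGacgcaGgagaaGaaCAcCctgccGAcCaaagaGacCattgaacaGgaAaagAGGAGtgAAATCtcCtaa
The remaining 95 bases were the same, an identity of 70.4%.

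Relatives elsewhere in the genome bear on the values too. Of all stretches of 50 bases in the main annotated transcript, 63.5% of those of Tmsb10, 60.7% of those of Actg1, 23.0% of those of Cfl1 and 14.2% of those of Actb also occurred in an annotated transcript of another gene. For Tmsb10, Actg1, Actb and Cfl1 most of these other genes were annotated pseudogenes. With matches counted over all transcripts of a gene, Snx32 came first for Cfl1 and Lrrc58 for Actb. Actb and Actg1 themselves had 30 such stretches in common, 1.60% of those of Actb and 1.69% of those of Actg1. The share was 3.15% for Cap1, and 0 stretches of Pfn1, Coro1a, Tmsb4x, Capzb and Wdr1 were found in a transcript of another gene. The FPKM of Tmsb10, Actg1, Cfl1 and Actb are uncertain to the extent that fragments were divided between such copies.

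Myh9, the targeted gene, was at 50.6 FPKM in the CD23Cre+Myh9wt/fl control and 21.1 FPKM in CD23Cre+Myh9fl/fl cells, 41.7% of the control level, in the direction given by the labels. In the study a single exon of Myh9 is flanked, and deletion was checked on the mRNA of that exon and on protein. A value for the whole gene can include transcripts without that exon, so 41.7% does not measure how complete the deletion was.

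All 10 genes of the set were higher in the myosin IIa-deficient cells, by 1.06-fold for Tmsb4x up to 1.204-fold for Tmsb10. Their combined level was 11713 FPKM in the CD23Cre+Myh9wt/fl control and 12969 FPKM in CD23Cre+Myh9fl/fl cells, a ratio of 1.11. They made up 1.97% and 2.18% of the FPKM of all entries. These are averages over a bulk sample, in which fewer cells of a type and less RNA per cell cannot be told apart.

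**Figure D1:**
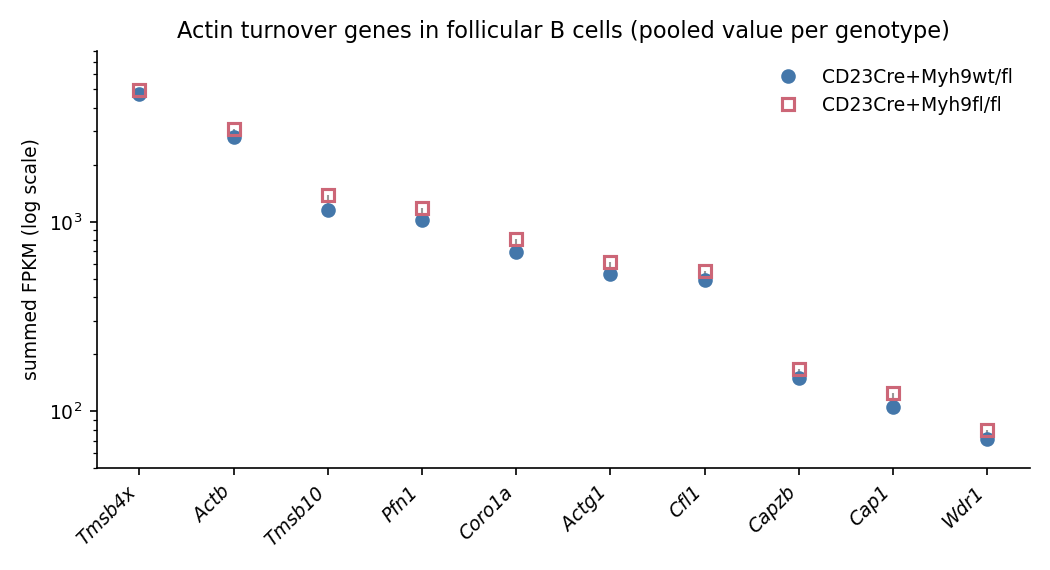
Summed FPKM (vertical axis, log scale) of each of the 10 genes, ordered by mean level, in CD23Cre+Myh9wt/fl (filled circles) and CD23Cre+Myh9fl/fl (open squares) follicular B cells. Each symbol is the authors' single pooled value of 3 replicates, so there are no error bars. The square lies above the circle for every gene, from Tmsb4x at 4703 and 4968 FPKM to Wdr1 at 71.6 and 80.0 FPKM.

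Actb, the cytoplasmic β-actin (mm9, chr5:143664794-143668403), was at 2800 FPKM in the CD23Cre+Myh9wt/fl control and 3074 FPKM in CD23Cre+Myh9fl/fl cells, a ratio of 1.098. Actg1, the cytoplasmic γ-actin (mm9, chr11:120207003-120209798), was at 529 and 615 FPKM in the same order, a ratio of 1.16. β-actin mRNA was therefore the main actin mRNA in both genotypes, and Actg1 supplied 15.9% of the summed actin FPKM in the control and 16.7% in the deficient cells. The summed actin level was 3330 FPKM in the CD23Cre+Myh9wt/fl control and 3689 FPKM in CD23Cre+Myh9fl/fl cells, a ratio of 1.11. The muscle actins were at or near 0, with Actc1 and Actg2 listed at 0 in both genotypes and the smooth muscle actin Acta2 at 1.47 and 1.97 FPKM.

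Tmsb4x, encoding thymosin β4 (mm9, chrX:163645025-163647150), was the most abundant gene of the set, at 4703 FPKM in the CD23Cre+Myh9wt/fl control and 4968 FPKM in CD23Cre+Myh9fl/fl cells. It ranked 15 among all gene names by mean FPKM and had the smallest ratio of the set, 1.06. Tmsb10, encoding thymosin β10 (mm9, chr6:72907340-72908742), was at 1153 and 1388 FPKM and had the largest ratio, 1.204. Both genes encode small peptides that bind single actin monomers and keep them from assembling. Because they differed unequally between the genotypes, the Tmsb4x level was 4.08 times that of Tmsb10 in the control and 3.58 times in the deficient cells. The summed thymosin level, at 5856 and 6356 FPKM, stood at 1.76 times the summed actin level in CD23Cre+Myh9wt/fl and 1.72 times in CD23Cre+Myh9fl/fl cells.

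Pfn1, profilin, which exchanges the nucleotide of monomers and delivers them to growing ends (mm9, chr11:70465348-70468152), was at 1017 FPKM in the control and 1186 FPKM in the deficient cells, a ratio of 1.17. Cap1, cyclase-associated protein, which helps strip cofilin from monomers and recharge them (mm9, chr4:122536470-122563124), was much less abundant, at 105 and 125 FPKM, with a ratio of 1.196. Relative to summed actin, Pfn1 mRNA was 30.5% in CD23Cre+Myh9wt/fl and 32.2% in CD23Cre+Myh9fl/fl cells, and Cap1 mRNA was 3.15% and 3.40%.

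Cfl1, cofilin, which severs ageing filaments (mm9, chr19:5490454-5494031), was at 495 FPKM in the CD23Cre+Myh9wt/fl control and 553 FPKM in CD23Cre+Myh9fl/fl cells, a ratio of 1.12. Wdr1, which works with cofilin in disassembly (mm9, chr5:38918051-38952834), was the least abundant gene of the set at 71.6 and 80.0 FPKM, also a ratio of 1.12. Cofilin mRNA stood at 6.91 times Wdr1 mRNA in each genotype. Coro1a, the coronin of blood cells (mm9, chr7:133843287-133848268), was at 689 FPKM in the control and 813 FPKM in the deficient cells, a ratio of 1.18.

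Capzb, the β subunit of capping protein (mm9, chr4:138748813-138847735), was the only gene of the set with several entries, 4 in number and all given the same position. Summed over them it was at 150 FPKM in the CD23Cre+Myh9wt/fl control and 167 FPKM in CD23Cre+Myh9fl/fl cells, a ratio of 1.11. The main entry was at 143 FPKM in the control and 165 FPKM in the deficient cells, a ratio of 1.16, and held 95.4% and 99.3% of the gene's FPKM. Of the minor entries, 1 was at 4.02 FPKM in the control and listed at 0 in the deficient cells, 1 was at 1.72 and 0.0238 FPKM, and 1 was at 1.16 and 1.22 FPKM. The gene-level difference was thus smaller than that of the main entry, since the minor entries together were lower in the deficient cells. Capping protein works as a pair of α and β subunits, and Capzb mRNA stood at 0.831 times the summed Capza1 and Capza2 mRNA in CD23Cre+Myh9wt/fl and 0.873 times in CD23Cre+Myh9fl/fl cells.

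**Figure D2:**
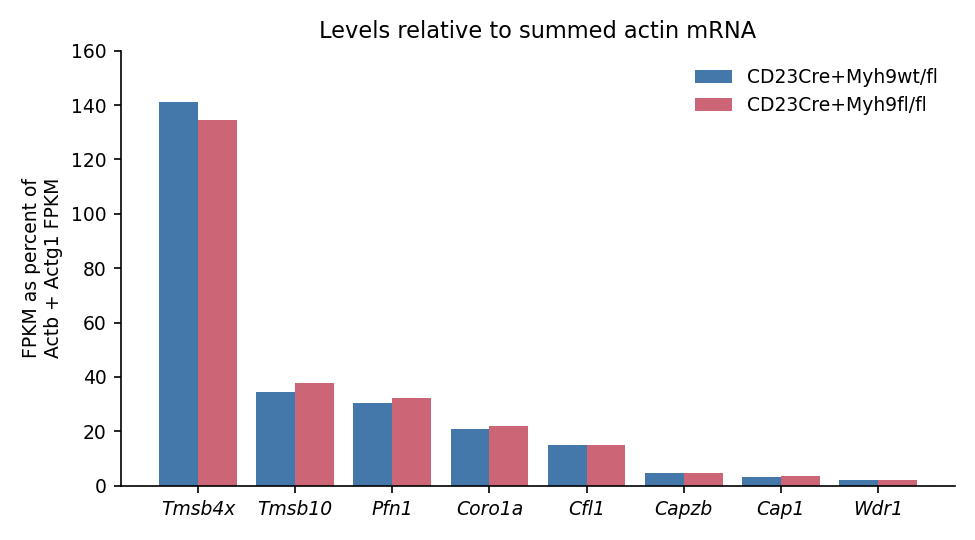
FPKM of the 8 non-actin genes as a percentage of summed Actb and Actg1 FPKM (vertical axis, from 0) in CD23Cre+Myh9wt/fl (blue bars) and CD23Cre+Myh9fl/fl (red bars) cells, with 1 pooled value per bar and no error. Tmsb4x was at 141% and 135%, Tmsb10 at 34.6% and 37.6%, and Cfl1 at 14.9% and 15.0%.

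The whole set differed by the same ratio as summed actin, 1.11. Actins included, it came to 351.8% of summed actin in CD23Cre+Myh9wt/fl and 351.5% in CD23Cre+Myh9fl/fl cells. Coro1a was at 20.7% and 22.03%, Capzb at 4.50% and 4.52% and Wdr1 at 2.15% and 2.17% of summed actin. Tmsb4x was the only gene among the 8 whose share was lower in the deficient cells, and Myh9 itself went from 1.52% to 0.573%. Since Tmsb4x and Actb carried most of the FPKM and had the smallest ratios, the other 8 genes summed to 4209 FPKM in the control and 4927 FPKM in the deficient cells, a ratio of 1.17 against 1.11 for the whole set.

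The same differences were placed among all genes on the log2 scale, as log2 of the ratio fl/fl over wt/fl after adding 1 to each FPKM. On this scale the median of the 10 genes was 0.19, with a range from 0.079 for Tmsb4x to 0.27 for Tmsb10, and the median of the 9866 genes whose mean reached 1 FPKM was 0.0026. All 10 genes passed that filter, and 10 of 10 were higher in CD23Cre+Myh9fl/fl cells, where 50.5% of the 9866 genes were. Past 1.1-fold, a limit chosen after the values were seen, 8 of 10 were higher (all but Tmsb4x and Actb) and 0 lower, where 20% of genes were higher and 20.2% lower. Past 1.2-fold, 1 of 10 was higher (Tmsb10) and 0 lower, where 7.23% of genes were higher and 8.33% lower. Past 1.5-fold, 0 were higher or lower, where 0.791% of genes were higher and 1.53% lower. Each difference was thus small, and the genes of the set were alike in direction.

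The genes of the set are abundant, so the 618 genes whose mean reached 100 FPKM were taken as a second background, which includes 9 of the 10 genes and leaves out Wdr1 with a mean of 75.8 FPKM. The median log2 ratio of these 618 genes was 0.028, and their interquartile range ran from -0.060 to 0.11. All 9 were higher, where 58.1% of the 618 were. Past 1.1-fold, 7 of the 9 were higher and 0 lower, where 18.9% of the 618 were higher and 10% lower. Past 1.2-fold, Tmsb10 alone of the 9 was higher and 0 were lower, where 4.37% of the 618 were higher and 4.05% lower. Among the 618 genes, the ratio of Tmsb10 stood at percentile 96.1, that of Cap1 at 95.5, that of Coro1a at 93.2 and that of Pfn1 at 92.2. Actg1 stood at percentile 91.3, Cfl1 at 85.0, Capzb at 84.1 and Actb at 80.7. Tmsb4x stood lowest of the 9, at percentile 66.7.

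**Figure D3:**
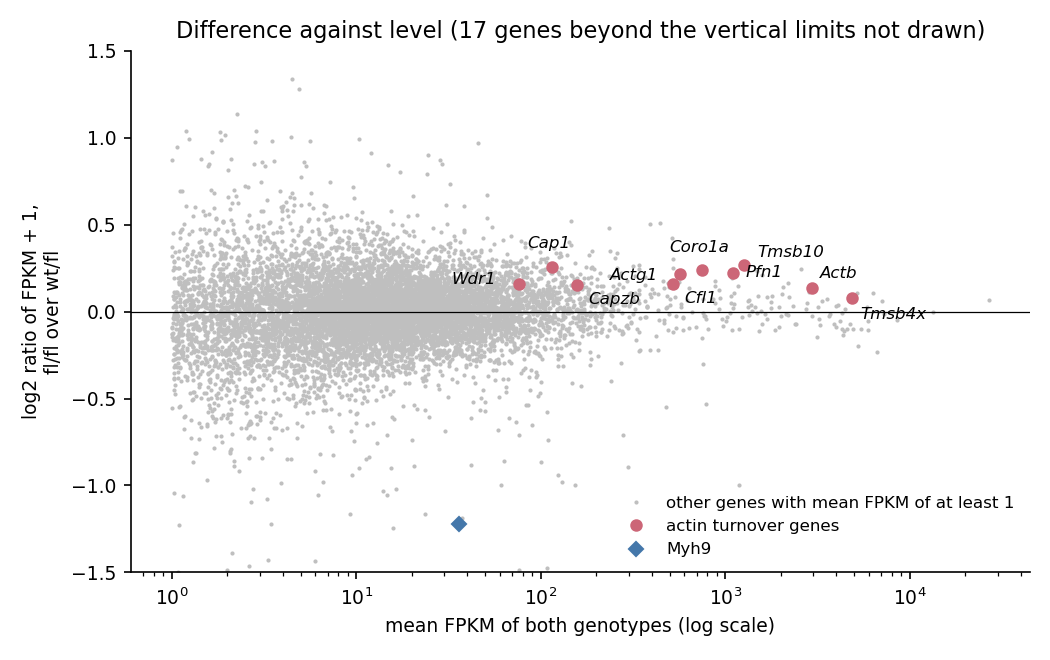
Log2 ratio of FPKM + 1, CD23Cre+Myh9fl/fl over CD23Cre+Myh9wt/fl (vertical axis), against mean FPKM (horizontal axis, log scale) for the 9866 genes whose mean reached 1 FPKM (grey points, 17 beyond the limits not drawn). The 10 named genes (red) lie between 0.079 and 0.27, above the zero line at the abundant end, and Myh9 (blue diamond) lies at -1.22.

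The genes differ in length and base composition, with main transcripts from 570 to 3089 bases and GC contents from 46.4% to 58.6%. Among the abundant genes, 593 of the 618 had an annotated length. Their median log2 ratio was 0.0088 for the 200 under 1000 bases, 0.063 for the 198 of intermediate length and 0.027 for the 195 of 2000 bases or more. The 3 genes of the set under 1000 bases included the lowest ratio, Tmsb4x, and the highest, Tmsb10.

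Other actin monomers and monomer-binding genes lay on both sides of 0. Of 16 listed, 7 averaged 1 FPKM or more, of which 3 were higher and 4 lower in CD23Cre+Myh9fl/fl cells, with a median log2 ratio of -0.080. Past 1.1-fold 3 were higher and 1 lower, and past 1.2-fold 2 were higher (Pfn2, at 2.54 and 3.37 FPKM, and Acta2) and 1 lower (Tmsb15l). The most abundant were Mtss1, at 68.2 and 64.4 FPKM, and the twinfilins Twf2, at 33.8 and 30.8 FPKM, and Twf1, at 25.7 and 23.3 FPKM, which bind monomers and filament ends. All of them were far less abundant than Pfn1 or either thymosin of the set.

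Of 18 other severing and disassembly genes, 13 averaged 1 FPKM or more, of which 9 were higher and 4 lower, with a median log2 ratio of 0.080. Past 1.1-fold 5 were higher and 3 lower, and past 1.2-fold 0 were higher or lower. Gmfg, the glia maturation factor of blood cells, which takes apart filament branches, was at 167 FPKM in the control and 184 FPKM in the deficient cells. Coro1b was at 48.9 and 50.6 FPKM, and Gmfb at 44.5 and 48.6 FPKM. The near relatives of Cfl1 lay on the other side of 0 from it: Cfl2 was at 17.1 and 15.2 FPKM and Dstn, destrin, at 12.7 and 10.5 FPKM.

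Of 17 other capping genes, 15 were in the table and 10 averaged 1 FPKM or more, of which 6 were higher and 4 lower, with a median log2 ratio of 0.059. Past 1.1-fold 2 were higher and 2 lower, and past 1.2-fold 0 were higher or lower. Capg, a capping protein of the gelsolin family, was at 131 FPKM in the control and 145 FPKM in the deficient cells. The adducin Add3 was at 129 and 140 FPKM, and the pointed-end capping gene Tmod3 at 114 and 105 FPKM. The partners of Capzb, Capza1 and Capza2, were at 100.1 and 103 FPKM and at 80.0 and 87.5 FPKM.

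Kinases and phosphatases that set the activity of cofilin were on balance not higher. Of 13 listed, 12 averaged 1 FPKM or more, of which 5 were higher and 7 lower in the deficient cells, with a median log2 ratio of -0.015. Past 1.1-fold 1 was higher and 4 lower, and past 1.2-fold 0 were higher and 2 lower. These were Ssh2, a slingshot phosphatase that activates cofilin, at 64.0 FPKM in the control and 52.7 FPKM in the deficient cells, and Rock2, a kinase upstream of the LIM kinases and of myosin II, at 49.2 and 40.6 FPKM. Its relative Rock1 was at 46.8 and 49.1 FPKM, and Pak2 at 53.5 and 49.5 FPKM.

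Actin genes are classic targets of serum response factor, whose coactivators of the MRTF family are held in the cytoplasm by free actin monomers. The factor binds the CArG box, an A- and T-rich core between paired C and G bases, which was searched on both strands in windows from 250 bases before to 50 after each start in RefSeq (GRCm38.p6). Of the 9 genes of the set with a window (all but Actb), 1 held a match, Actg1, and 1.81% of all 27025 genes with a window did. Counted by window, 1 of 12 held a match, and 1.63% of all 32851 windows did. It is printed with its flanks (chr11:120348551-120348610, minus strand), with the box in capitals, 81 to 90 bases before the start.
Actg1 promoter: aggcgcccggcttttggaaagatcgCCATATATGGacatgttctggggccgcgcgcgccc
A match describes the letters in the window only.

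Of 25 genes of the serum response factor pathway, including targets other than actin, 21 were in the table and 16 averaged 1 FPKM or more, of which 11 were higher and 5 lower, with a median log2 ratio of 0.088. Past 1.1-fold 5 were higher and 2 lower, past 1.2-fold 2 were higher (Egr1 and Egr2) and 1 lower (Fos), and past 1.5-fold 0 were higher or lower. Tagln2, a calponin-family actin binder, was at 194 FPKM in the control and 202 FPKM in the deficient cells, its relative Cnn2 at 135 and 156 FPKM, and the cofactor Elk4 at 71.4 and 76.5 FPKM. Srf itself was at 13.6 and 15.1 FPKM, and its coactivator Mkl1 at 28.5 and 26.8 FPKM.

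**Figure D4:**
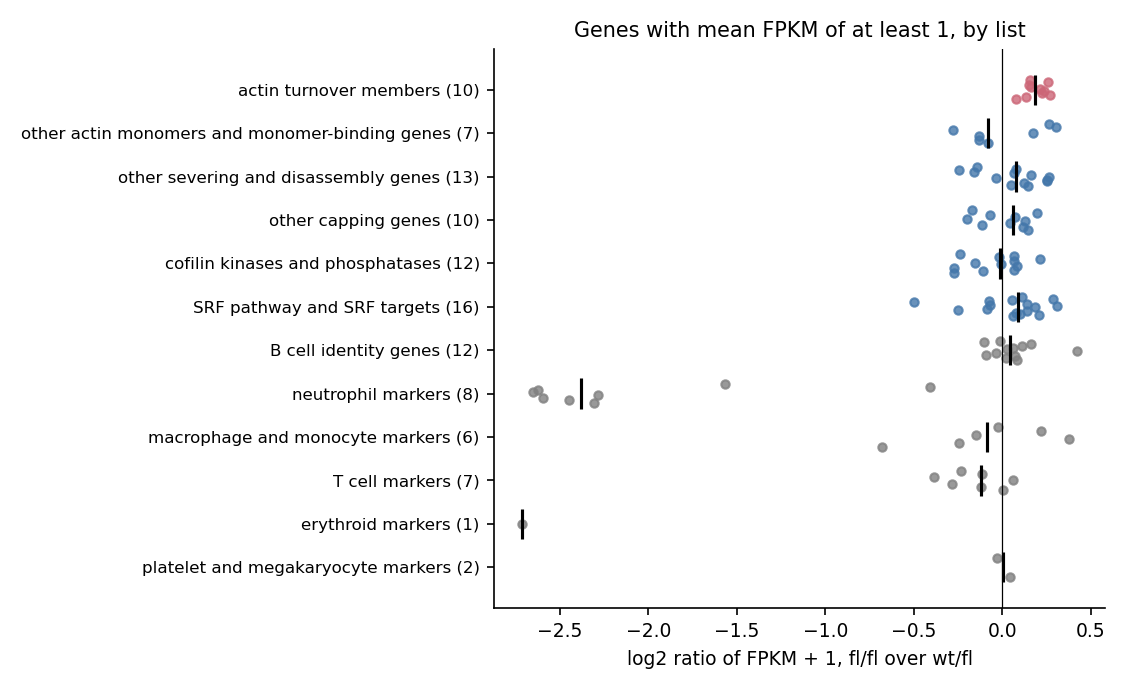
Log2 ratio of FPKM + 1, CD23Cre+Myh9fl/fl over CD23Cre+Myh9wt/fl (horizontal axis), of each gene whose mean reached 1 FPKM in the actin turnover set (red), related actin lists (blue) and cell type marker lists (grey), with the number of genes in parentheses and the list median as a black bar. The set's points all lie to the right of 0 with a median of 0.19, each other actin list drawn has points on both sides, and neutrophil markers have a median of -2.38. Some abundant actin genes are in none of the lists. Among these are subunits of the Arp2/3 complex. Actr3 (1017 and 1165 FPKM), Arpc2 (477 and 568 FPKM) and Arpc5 (238 and 283 FPKM) were also higher. So were Arpc1b (207 and 230 FPKM), Arpc5l (147 and 168 FPKM), Actr2 (139 and 146 FPKM) and Arpc1a (29.6 and 33.3 FPKM). Arpc3 (139.3 and 139.4 FPKM) was nearly equal, and Arpc4 (77.4 and 74.5 FPKM) alone of these subunits was lower. A largely shared direction was therefore not particular to the set.

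The sorted cells had the defining markers of B cells, and 0 of 12 B cell identity genes were at 0 in either genotype. Of these 12, 8 were higher and 4 lower in CD23Cre+Myh9fl/fl cells, with a median log2 ratio of 0.043 and a summed level of 6738 FPKM in the control and 7047 FPKM in the deficient cells, a ratio of 1.05. Cd79b was at 1638 and 1739 FPKM, Cd79a at 1098 and 1115 FPKM and Cd37 at 834 and 877 FPKM. Past 1.1-fold 2 were higher and 0 lower, and past 1.2-fold 1 was higher, Fcer2a, which encodes CD23, at 439 and 588 FPKM.

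Markers of other blood cells differed as well, and these cells express genes of the set too. Neutrophil markers summed to 381 FPKM in the CD23Cre+Myh9wt/fl control and 68.4 FPKM in CD23Cre+Myh9fl/fl cells, and of 12 such markers the 8 that averaged 1 FPKM or more were all lower, 7 of them past 1.5-fold. The calprotectin genes S100a9, at 175 and 34.5 FPKM, and S100a8, at 145 and 25.8 FPKM, were the most abundant. The others past 1.5-fold were Camp, at 15.3 and 1.70 FPKM, Retnlg, at 13.0 and 1.88 FPKM, Ngp, at 13.4 and 1.29 FPKM, Lcn2, at 12.6 and 1.21 FPKM, and Ltf, at 2.31 and 0.118 FPKM. Elane and Mpo were near 0 in the control, at 0.119 and 0.0916 FPKM, and listed at 0 in the deficient cells. These markers were lower in the genotype in which the actin turnover genes were higher, and the part of neutrophil RNA in the values of the set was not tested.

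Of 12 macrophage and monocyte markers, 11 were in the table and 6 averaged 1 FPKM or more, of which 2 were higher and 4 lower, with a summed level of 90.2 FPKM in the control and 61.1 FPKM in the deficient cells. Most of that sum, and of its difference, came from Lyz2, at 72.6 and 44.9 FPKM, the only one past 1.5-fold. Cd68 was at 7.41 and 6.10 FPKM and C1qb at 1.61 and 2.39 FPKM. Of 12 T cell markers 7 averaged 1 FPKM or more, of which 2 were higher and 5 lower, with a summed level of 30.9 and 28.6 FPKM. Lck was at 14.5 FPKM in each genotype, Lat at 2.86 and 2.54 FPKM and Cd3d at 3.02 and 2.31 FPKM. Of 13 erythroid markers 6 were in the table and 1 averaged 1 FPKM or more, with a summed level of 55.8 and 7.86 FPKM, nearly all from the globin gene Beta-s at 52.0 and 7.08 FPKM, with Alas2 at 1.28 and 0.295 FPKM and Slc4a1 at 1.29 and 0.0669 FPKM. Platelet and megakaryocyte markers, from cells rich in Tmsb4x and actin, were low in both genotypes, with a summed level of 19.0 FPKM in the control and 20.7 FPKM in the deficient cells. Most of that came from Itgb3, at 16.4 and 17.0 FPKM, with Ppbp at 1.43 and 1.38 FPKM, Gp1ba at 0.618 and 1.07 FPKM and Pf4 at 0.168 and 0.880 FPKM. Of the 10 platelet genes 1 was listed at 0 in the control and 2 in the deficient cells. The part of any of these cells in the differences of the actin turnover genes was not tested.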

How the data were processed

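Sorted follicular B cells were profiled in 3 replicates per genotype by RNA sequencing after RNA amplification. The authors' processing notes name Bowtie, TopHat and Cufflinks, without versions, and mm10 (GRCm38), whereas the positions in the table are those of mm9 and are printed as such. The deposited values are FPKM per entry, pooled by the authors to 1 value per genotype. Columns with the authors' fold changes, test statistics and p-values were not used. Samples were grouped by genotype, as labelled.

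FPKM were summed over the entries of a gene, after 44 entries whose symbols are stored as dates were left out. A log2 ratio, fl/fl over wt/fl, was computed with a pseudocount of 1, for genes whose mean reached 1 FPKM, and folds of 1.1, 1.2 and 1.5 are on that scale, while ratios in the text are of FPKM as deposited. With 1 value per genotype there was no test, and the depth per sample is not given in the sources used here. Counting was checked on simulated data. Sequences came from GRCm38 with GENCODE M21 and from RefSeq promoters (GRCm38.p6). Python 3.11.15 and pandas 2.3.3 were used. Alternatives were the pseudocount, the scaling, the filter and the most abundant entry alone.

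The genes of the set and all lists were chosen with earlier results of these data known. Named are the genes of the set, Myh9, and from each other list the 3 most abundant and those past 1.5-fold. Acta2, Actc1, Actg2, Pfn2, Tmsb15l, Cfl2, Dstn, Capza1, Capza2, Rock2, Srf, Mkl1, Egr1, Egr2, Fos, Fcer2a, Elane, Mpo and Pf4 were named after their values were seen. So were the Arp2/3 complex subunits Actr2, Actr3, Arpc1a, Arpc1b, Arpc2, Arpc3, Arpc4, Arpc5 and Arpc5l.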

Additional observations from a re-analysis of the deposited data

How the results depend on the processing

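With another pseudocount, scaling or centring, or with the most abundant entry alone, all 10 actin turnover genes stayed higher in CD23Cre+Myh9fl/fl cells, in 70 of 70 recomputed log2 ratios (0.051 to 0.28), and their median ran from 0.16 to 0.21. These settings rework the same pooled values, and most could hardly move a ratio at such levels. The upper quartiles differed between genotypes by a factor of 1.011 and the totals by 1.001, and 9 of the genes have 1 entry. The count therefore says nothing about the spread between replicates. The settings of the filter on low values do not alter a gene's own ratio and were run on lists and on all genes. The counts past a fold depended on small shifts. With the upper quartile of both genotypes made equal, 0 genes of the set were higher past 1.2-fold. With the median of the genes of at least 100 FPKM subtracted, a setting chosen after seeing the data, 5 were higher past 1.1-fold and 0 past 1.2-fold. The other monomer and monomer-binding genes had a median of 0.015 in place of -0.080 when genes at any level above 0 were included. The T cell marker median was 0.0029 in place of -0.12 for genes of at least 5 FPKM, and that of the platelet markers, 0.0070, was below 0 with a pseudocount of 0.1, with upper quartile scaling and with the median subtracted (-0.021 at the lowest). Of 337 recomputed values, 319 stayed within 0.1 on the log2 scale or 1.5 times for a count or share, and 18 moved further.

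Leaving out a replicate was not run, and no test across replicates was made, since each genotype has 1 pooled value. No paired analysis was possible because the table carries no value per replicate. Whether any ratio in the set is larger than the spread between replicates was not tested here.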
